A study of Mus musculus with 8 samples.

Results

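The tumour necrosis factor (TNF) superfamily ligands and receptors were described in mouse pancreatic tumour cells whose labels differ in Lifr, the gene for the leukaemia inhibitory factor receptor. Members were taken by symbol from the deposited gene count table: every symbol starting Tnfsf or Tnfrsf followed by a digit, with Tnf, Lta, Ltb, Ltbr, Fas, Fasl, Cd40, Cd40lg, Cd27 and Cd70. The rule found 41 of 24537 genes, 17 ligands and 24 receptors, and used no measured value. Each of the 41 had at least 1 read in at least 1 tumour.

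TNF superfamily ligands are mostly membrane-bound trimers that can be shed from the cell, and they bind receptors with cysteine-rich outer domains. One class of receptors carries an intracellular death domain and can start apoptosis through caspases. The other recruits TRAF adaptors and activates NF-kB and stress kinases, and a few members are decoys that bind a ligand without signalling. In pancreatic cancer the family is studied in the tumour cells and in the immune cells around them.

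Pancreatic tumours of FVB/NJ mice were collected at 44 to 49 days of age. The tumours labelled KO (n = 4) carried Lifr f/f, and the tumours labelled WT (n = 4) carried Lifr f/+ in replicates 1 and 2 and Lifr +/+ in replicates 3 and 4. Both groups also carried Trp53 f/f, Rosa26 LSL-Luc and Pdx1-Cre. Pdx1-Cre drives recombination from a pancreatic promoter, so the floxed and LSL alleles recombine mainly in the pancreatic epithelial lineage, to which infiltrating leukocytes do not belong. Tumours were dissected one by one and dissociated, and EpCAM+ cells were sorted and sequenced without culture. EpCAM is a surface protein of epithelial cells.

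Library totals over genes ran from 14938875 to 22698340 counts. Lifr had 158, 205, 149.8 and 219.7 CPM (counts scaled to library size) in the tumours labelled KO, against 126, 93.7, 71.8 and 99.6 CPM in the tumours labelled WT. All 4 tumours labelled KO were above all 4 labelled WT, opposite to what a knockout label would give over the whole transcript (log2 fold change 0.90 ± 0.19 SE, edgeR adjusted p = 0.0121). Which exon is floxed is not given in the sources used here, and reads outside it do not test the deletion. The groups are therefore called by their labels, and every direction below is that of the labelled groups. Epcam averaged 421 ± 57.7 CPM in the tumours labelled KO and 775 ± 96.5 CPM in those labelled WT (SD, n = 4 each). Ptprc, which encodes the leukocyte protein CD45, averaged 503 ± 48.9 and Adgre1, a macrophage marker, 212 ± 21.4 CPM in the tumours labelled KO, against 304 ± 61.3 and 93.1 ± 26.2 CPM in those labelled WT. The sorted cells thus held leukocyte RNA in both groups, and these are bulk samples, in which fewer cells of a type and less RNA per cell cannot be told apart.

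Across the family, ligands and most receptors that changed were higher in the tumours labelled KO, while Tnfrsf12a, the member with the highest level, and 3 of the 4 receptors paired with the ligand TRAIL were lower. Of the 41 members, 35 passed the low-count filter (13 ligands and 22 receptors), and 16 of them passed edgeR's quasi-likelihood test at an adjusted p under 0.05. The same test called 21.8% of all 14728 genes tested, 11.1% as higher and 10.8% as lower under the KO label. Among the members, 12 were higher (6 ligands and 6 receptors), and 4, all receptors, were lower. No ligand was called lower: the count was 0 of 13 by edgeR, 0 at an unadjusted p under 0.05 and 0 by DESeq2. Beside the 10.8% of all genes that edgeR called lower, few of 13 would be called lower at that share. The median log2 fold change over the 35 tested members was 0.52, beside 0.01 over all genes tested. In 14 of the 35 tested members (40%) the 2 groups did not overlap in CPM, beside 25.5% of all tested genes. All 14 were called, which makes 87.5% of the 16 called members, beside 90.5% of all called genes. Leaving out 1 tumour at a time gave 7 to 11 members higher and 3 to 5 lower, with 7 higher and 4 lower without KO replicate 1 (7.78% and 7.64% of all genes), 7 and 4 without WT replicate 1 (8.27% and 7.67%) and 7 and 5 without WT replicate 3 (7.26% and 6.73%). Scaling by library totals alone shifted the median of all genes to -0.17 and gave 8 members higher and 5 lower (6.11% and 21.1% of all genes), so that 61.5% of the members' calls were higher in place of 75%, beside 22.5% in place of 50.7% of the calls over all genes.

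**Figure D1:**
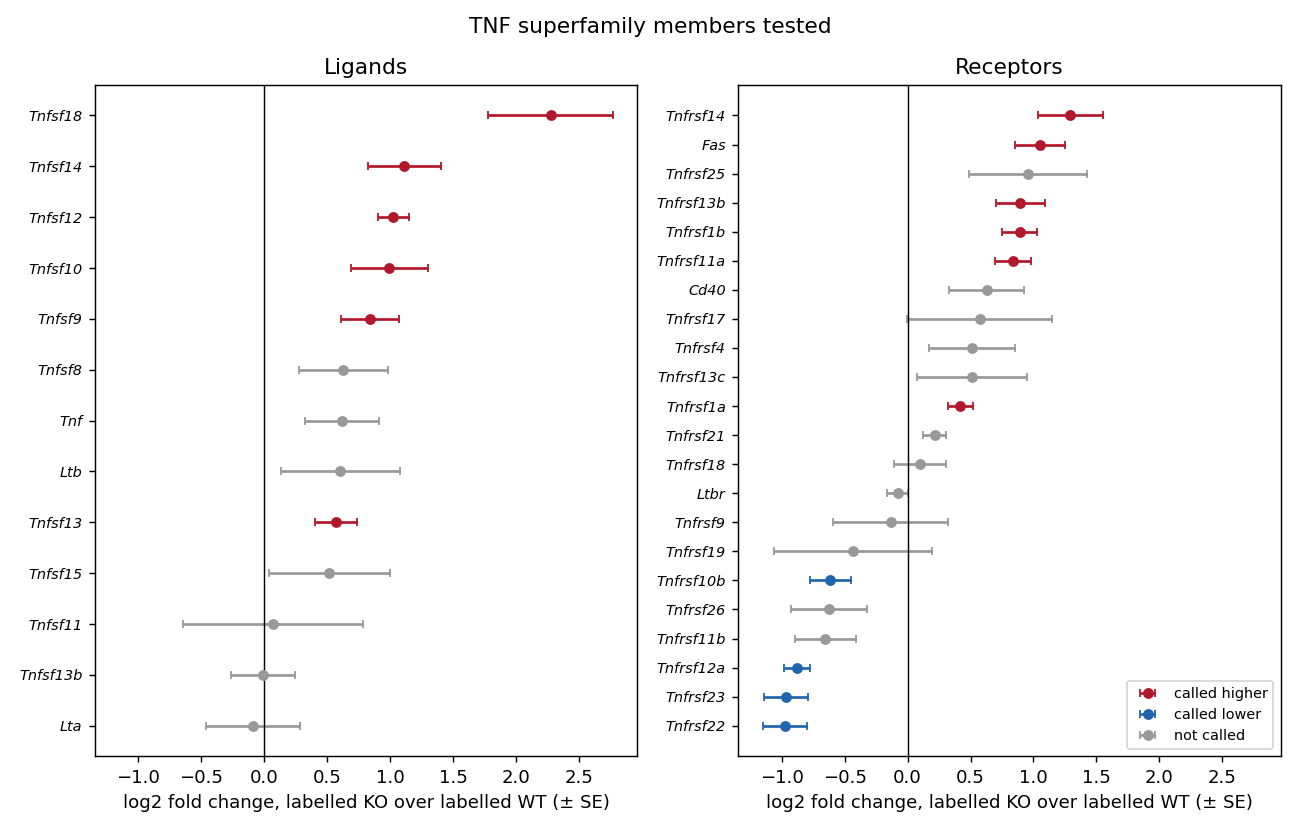
Log2 fold change of each of the 35 tested members, tumours labelled KO over tumours labelled WT (x axis, log2 scale of scaled CPM), with bars of 1 SE and colours for the edgeR call. The 12 members called higher lie between 0.42 and 2.27, and the 4 called lower between -0.97 and -0.61.

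Upstream sequence was compared for the members that moved. RefSeq promoter sequences (GRCm38.p6, the same assembly as mm10, 250 bases before to 50 bases after a start site) matched 31 of the 41 members with 35 promoters. An NF-kB-like match (GGG, any 5 bases, then CC, on either strand) was in 62.9% of the 35 member promoters, beside 50.8% of 32851 promoters of the same length. An interferon-response-like match (GAAA, any 2 bases, then GAAA, on either strand) was in 11.4% of the member promoters, beside 3.44% of all. The 4 holding the second match were those of Tnfrsf14, Tnfrsf1b, Tnfrsf17 and Tnfsf13b. Among members called higher, 8 of 10 matched promoters held the first motif and 2 of 10 the second. That of Tnfrsf13b, which is among the 8, is not at the start of the counted transcript. It ends at base 61126804, upstream of the transcript's start at 61140835. Among members called lower, 2 of 2 held the first and 0 of 2 the second. These are letter matches and not known sites. The 4 promoters below are those of a pair of receptors that were lower and of the 2 higher receptors that hold both motifs, each 5' to 3' on the minus strand, which is the strand of each gene, with the bases of either match in capitals.
Tnfrsf12a, lower, chr17:23677400-23677699: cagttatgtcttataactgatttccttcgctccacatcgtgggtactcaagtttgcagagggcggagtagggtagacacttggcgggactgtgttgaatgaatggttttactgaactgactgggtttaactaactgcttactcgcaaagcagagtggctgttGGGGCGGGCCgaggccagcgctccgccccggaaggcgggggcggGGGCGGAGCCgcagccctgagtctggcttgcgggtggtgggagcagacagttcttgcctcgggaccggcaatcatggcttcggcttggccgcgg
Tnfrsf23, lower, chr7:143685826-143686125: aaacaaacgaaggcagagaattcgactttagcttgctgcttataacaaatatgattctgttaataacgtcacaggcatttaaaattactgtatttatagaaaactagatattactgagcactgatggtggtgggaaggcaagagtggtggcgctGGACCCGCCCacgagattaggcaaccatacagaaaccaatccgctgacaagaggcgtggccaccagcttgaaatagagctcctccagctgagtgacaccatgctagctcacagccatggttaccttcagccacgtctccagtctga
Tnfrsf14, higher, chr4:154928028-154928327: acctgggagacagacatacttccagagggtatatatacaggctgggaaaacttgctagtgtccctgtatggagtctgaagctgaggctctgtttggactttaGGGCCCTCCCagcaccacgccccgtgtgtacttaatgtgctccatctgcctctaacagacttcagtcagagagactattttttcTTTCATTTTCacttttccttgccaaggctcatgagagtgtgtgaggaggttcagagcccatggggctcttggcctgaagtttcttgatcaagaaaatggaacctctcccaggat
Tnfrsf1b, higher, chr4:145246821-145247120: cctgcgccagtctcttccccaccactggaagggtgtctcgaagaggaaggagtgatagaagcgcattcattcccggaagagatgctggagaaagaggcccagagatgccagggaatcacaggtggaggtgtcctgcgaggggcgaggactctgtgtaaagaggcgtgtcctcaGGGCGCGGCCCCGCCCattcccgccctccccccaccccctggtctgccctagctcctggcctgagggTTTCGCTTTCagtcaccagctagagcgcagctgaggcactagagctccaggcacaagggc
The interferon-response-like match began at position -64 from the start site in Tnfrsf14 and at position -10 in Tnfrsf1b. No motif of that kind was in the windows of Tnfrsf12a and Tnfrsf23.

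Among the 6 ligands called higher, Tnfsf12 and Tnfsf18 kept their calls without any 1 tumour. Values below are CPM of replicates 1 to 4, in that order, in each group. Tnfsf12 (chr11:69686240-69696098, minus strand) encodes TWEAK, the ligand of Tnfrsf12a. It stood at 52.9, 62.3, 63.7 and 61.2 CPM in the tumours labelled KO, against 31.9, 27.4, 24.2 and 34.5 CPM in those labelled WT. The groups did not overlap, and the log2 fold change was 1.03 ± 0.12 (SE, 95% interval 0.75 to 1.30, edgeR adjusted p = 0.00440). Tnfsf18 (chr1:161494657-161505290, plus strand) encodes GITRL, a costimulator of T cells. It had 5.05, 4.70, 3.06 and 8.47 CPM in the tumours labelled KO, against 0.886, 0.699, 0.583 and 2.30 CPM in those labelled WT, from 44 to 181 reads against 13 to 39 reads. This was the largest log2 fold change among the 35 tested members, 2.27 ± 0.49 (95% interval 1.15 to 3.40, edgeR adjusted p = 0.0141), at a low level. With 1 tumour left out the fold change ran from 1.94 to 2.88. The call was lost when only the +/+ tumours served as controls and without KO replicate 1 and WT replicate 2 together. On log2(FPKM + 1), where the pseudocount lowers the change of low genes, the difference was 0.82 and was called.

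The other 4 higher ligands had calls that depended on single tumours. Tnfsf14 (chr17:57189474-57194181), which encodes LIGHT, had 26.7, 25.0, 16.5 and 19.1 CPM in the tumours labelled KO, against 10.3, 8.48, 6.01 and 15.8 CPM in those labelled WT. The lowest tumour labelled KO lay just above the highest labelled WT (log2 fold change 1.11 ± 0.29, edgeR adjusted p = 0.0278), and the call needed each of KO replicates 1 and 2 and WT replicates 1, 2 and 3. Tnfsf13 (chr11:69682577-69685554), which encodes APRIL, a survival factor of plasma cells, had 56.7, 54.1, 57.7 and 76.6 CPM in the tumours labelled KO, against 40.7, 31.3, 42.0 and 51.3 CPM in those labelled WT. The groups did not overlap (0.57 ± 0.16, edgeR adjusted p = 0.0386), but the call was lost without any 1 tumour other than WT replicate 4. Tnfsf9 (chr17:57105385-57107757), which encodes 4-1BBL, had 31.4, 16.8, 26.0 and 30.8 CPM in the tumours labelled KO, against 12.9, 20.1, 13.7 and 11.96 CPM in those labelled WT. KO replicate 2 was below WT replicate 2 (0.84 ± 0.23, edgeR adjusted p = 0.0330), and the call needed every tumour but KO replicate 2 and WT replicate 2. Gm11110 overlaps Tnfsf9 by 558 bases on the other strand. Tnfsf10 (chr3:27317077-27339665), which encodes the death ligand TRAIL, had 9.66, 15.8, 13.7 and 6.83 CPM in the tumours labelled KO, against 6.04, 5.26, 3.90 and 7.89 CPM in those labelled WT. Its groups overlapped (0.99 ± 0.30, edgeR adjusted p = 0.0470), and the call needed every tumour but the fourth of each group, with an adjusted p of up to 0.129 when 1 was left out.

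Tnfsf13 and Tnfsf12 lie in tandem on chromosome 11, 685 bases apart, and the count table also lists Tnfsfm13, a read-through gene spanning both, which the symbol rule does not take. In the GENCODE M21 transcripts, 49.0% of the 50-base words of Tnfsf12 and 69.0% of those of Tnfsf13 also occur in Tnfsfm13. Tnfsfm13 had 1498, 1141, 1156 and 2019 reads in the tumours labelled KO, against 944, 881, 1061 and 1039 reads in those labelled WT. How reads were divided among the 3 genes is not stated, so the values of Tnfsf12 and Tnfsf13 are uncertain.

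The remaining ligands did not pass the test. Tnf, which activates both TNF receptors, was the most abundant ligand, at 36.4 ± 13.8 FPKM in the tumours labelled KO and 26.9 ± 5.84 FPKM in those labelled WT (SD, n = 4 each). FPKM is the library-scaled fragment count per kilobase of transcript and allows levels of different genes to be set side by side. In CPM, Tnf had 139, 93.0, 64.0 and 165 in the tumours labelled KO, against 99.8, 58.9, 63.7 and 79.1 in those labelled WT. The groups overlapped, and the interval of the log2 fold change, -0.05 to 1.28, includes 0 (edgeR adjusted p = 0.165). Ltb, a subunit of membrane lymphotoxin, had 17.8, 25.4, 14.9 and 5.99 CPM in the tumours labelled KO, against 5.21, 12.8, 7.22 and 16.9 CPM in those labelled WT (0.60 ± 0.47, edgeR adjusted p = 0.395). KO replicate 4 and WT replicate 4 ran against the other tumours of their groups. Lta, the soluble lymphotoxin, and Tnfsf11, the osteoclast factor RANKL, stayed under 1 CPM on average in both groups. Tnfsf13b, which encodes the B-cell factor BAFF, averaged 6.13 ± 1.76 CPM in the tumours labelled KO and 6.19 ± 1.65 CPM in those labelled WT, and its log2 fold change interval ran from -0.59 to 0.57. Tnfsf8, the ligand of CD30, averaged 11.3 ± 2.70 CPM in the tumours labelled KO and 7.35 ± 3.14 CPM in those labelled WT and did not pass (0.63 ± 0.35, edgeR adjusted p = 0.235). Fasl, Cd40lg, Cd70 and Tnfsf4, with the receptors Cd27 and Tnfrsf8, had 0 to 17 reads in any tumour and were not tested. Fasl, the ligand of Fas, had 11 reads in KO replicate 3 and 0 to 3 in the other tumours.

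**Figure D2:**
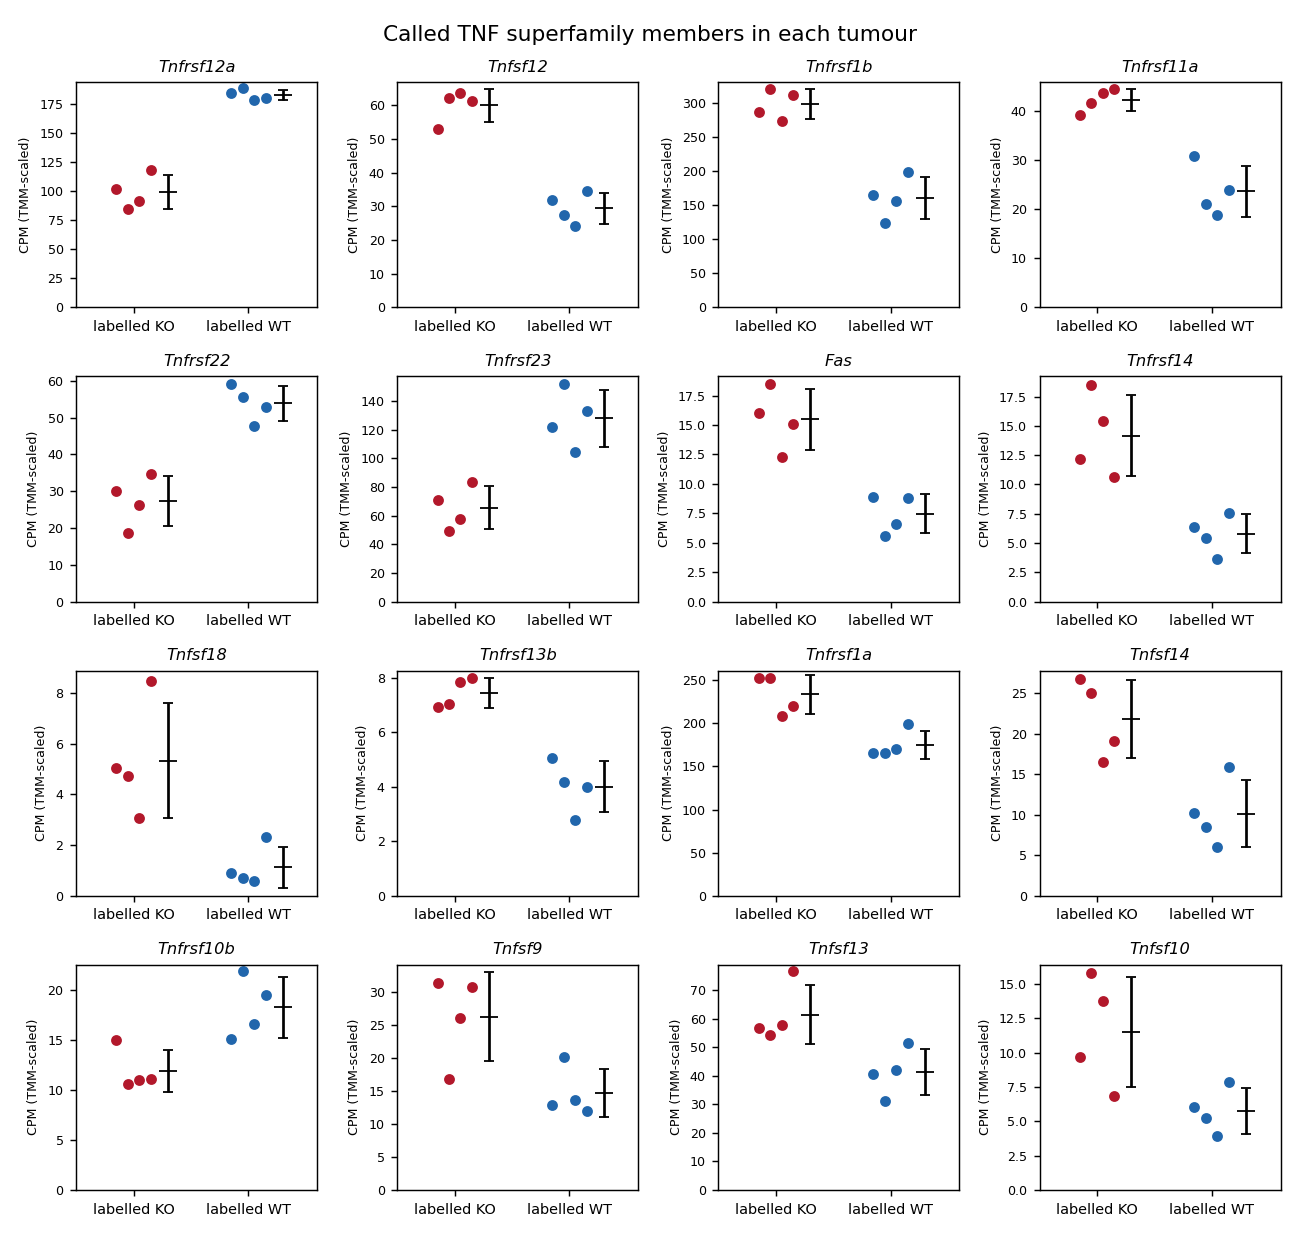
CPM of the 16 called members in each tumour (1 point per tumour, tumours labelled KO left of tumours labelled WT, each axis from 0), with the mean ± SD of each group in black. Points of the 2 groups overlap only for Tnfsf9 and Tnfsf10, where KO replicate 2 and KO replicate 4 lie among the tumours labelled WT.

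Of the 10 called receptors, 4 were lower and 6 higher. Tnfrsf12a (chr17:23675445-23677449, minus strand) encodes Fn14, a growth-factor-inducible receptor for TWEAK that signals through TRAF adaptors. It had 102, 84.9, 91.4 and 118 CPM in the tumours labelled KO, against 184, 188, 178 and 179.8 CPM in those labelled WT. The highest tumour labelled KO lay well under the lowest labelled WT (log2 fold change -0.88 ± 0.10, 95% interval -1.12 to -0.64, edgeR adjusted p = 0.00440). Its level was 54.7 ± 7.76 FPKM in the tumours labelled KO and 114 ± 6.78 FPKM in those labelled WT (SD, n = 4 each), the highest of the 41 members on average over the 8 tumours. It was called lower under all 17 alternatives run. Hcfc1r1 overlaps it by 80 bases on the other strand.

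Of the 4 receptors paired with the TRAIL ligand Tnfsf10, 3 were lower and Tnfrsf11b did not pass. Tnfrsf22 (chr7:143634808-143649664) and Tnfrsf23 (chr7:143665807-143685875) encode mouse TRAIL receptors without a working death domain, known as decoys. Tnfrsf22 had 30.0, 18.5, 26.2 and 34.7 CPM in the tumours labelled KO, against 59.1, 55.6, 47.7 and 52.8 CPM in those labelled WT. Tnfrsf23 had 71.3, 49.5, 58.0 and 83.6 CPM in the tumours labelled KO, against 122, 152, 105 and 133 CPM in those labelled WT. Neither gene's groups overlapped, with log2 fold changes of -0.97 ± 0.18 (edgeR adjusted p = 0.00795) and -0.96 ± 0.18 (edgeR adjusted p = 0.00817). The 2 genes are neighbours and share sequence: 25.9% of the 50-base words of Tnfrsf22 and 21.8% of those of Tnfrsf23 occur in the other, so reads may be split between them, and the pair is not independent evidence. Both calls were lost when only the +/+ tumours served as controls. Tnfrsf26, the next gene in the same cluster, had 10.8, 11.1, 10.1 and 13.7 CPM in the tumours labelled KO, against 14.2, 9.31, 27.8 and 19.3 CPM in those labelled WT and did not pass (edgeR adjusted p = 0.171). It passed, as lower, without WT replicate 2 and against the +/+ tumours alone. In Tnfrsf26, WT replicate 2 lay under all 4 tumours labelled KO.

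Tnfrsf10b (chr14:69767472-69784411, plus strand) encodes the mouse death receptor for TRAIL. In the GENCODE M21 transcripts, 9.07% of its 50-base words also occur in other genes, such as Gm15574. Tnfrsf10b had 15.01, 10.6, 10.97 and 11.05 CPM in the tumours labelled KO, against 15.1, 21.9, 16.5 and 19.4 CPM in those labelled WT. KO replicate 1 lay just under WT replicate 1, and the other tumours were further apart (log2 fold change -0.61 ± 0.16, edgeR adjusted p = 0.0297). The call needed KO replicates 2, 3 and 4 and WT replicates 2 and 4, with an adjusted p of up to 0.0864 when 1 was left out, and was lost against either kind of control alone. Tnfrsf11b, which encodes the soluble decoy osteoprotegerin, had 18.6, 19.6, 15.8 and 18.2 CPM in the tumours labelled KO, against 41.6, 21.0, 18.7 and 32.3 CPM in those labelled WT. WT replicate 3 lay among the tumours labelled KO, and the difference did not pass (-0.65 ± 0.24, edgeR adjusted p = 0.0885). It passed, as lower, by DESeq2, with library totals alone, without WT replicate 3 and by limma on the filtered FPKM values at both pseudocounts.

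Both TNF receptors were higher in the tumours labelled KO. Tnfrsf1b (chr4:145212368-145246870) encodes TNFR2, a TRAF-binding receptor without a death domain that is abundant on leukocytes. It had 286, 320.3, 274 and 312 CPM in the tumours labelled KO, against 164, 124, 157 and 199 CPM in those labelled WT. The groups were far apart (log2 fold change 0.89 ± 0.14, edgeR adjusted p = 0.00556), and the call held under all 17 alternatives. Tnfrsf1a (chr6:125349723-125362483) encodes TNFR1, the broadly expressed death-domain receptor. It had 253, 253, 209 and 220.3 CPM in the tumours labelled KO, against 165, 165, 169.7 and 199 CPM in those labelled WT. The groups did not overlap, but the difference was the smallest of the 16 calls (0.42 ± 0.10, edgeR adjusted p = 0.0188). It needed KO replicates 1 and 2 and WT replicates 1 and 3, and was lost with library totals alone.

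Fas, Tnfrsf14, Tnfrsf11a and Tnfrsf13b were also higher. Fas (chr19:34290659-34327770), the death-domain receptor of Fas ligand, had 16.0, 18.5, 12.3 and 15.1 CPM in the tumours labelled KO, against 8.91, 5.54, 6.59 and 8.84 CPM in those labelled WT. Its groups did not overlap (log2 fold change 1.05 ± 0.20, edgeR adjusted p = 0.00864). Tnfrsf14 (chr4:154922210-154928077), which encodes HVEM, the receptor of LIGHT, had 12.2, 18.5, 15.4 and 10.6 CPM in the tumours labelled KO, against 6.41, 5.45, 3.68 and 7.60 CPM in those labelled WT. Again the groups stood apart (1.29 ± 0.26, edgeR adjusted p = 0.0106), and the call was lost with only the +/+ tumours as controls. Tnfrsf11a (chr1:105780723-105847981), which encodes RANK, had 39.2, 41.6, 43.5 and 44.3 CPM in the tumours labelled KO, against 30.7, 21.0, 18.8 and 23.9 CPM in those labelled WT. The tumours labelled KO lay close together above all those labelled WT (0.84 ± 0.15, edgeR adjusted p = 0.00725). Tnfrsf13b (chr11:61140835-61147642), which encodes TACI, a receptor of B-lineage cells for APRIL and BAFF, had 6.93, 7.02, 7.85 and 8.01 CPM in the tumours labelled KO, against 5.05, 4.19, 2.78 and 4.01 CPM in those labelled WT. These groups did not overlap either (0.90 ± 0.20, edgeR adjusted p = 0.0148), and the call was lost with only the f/+ tumours as controls and without KO replicate 1 and WT replicate 2 together. Fas and Tnfrsf11a were called higher under all 17 alternatives.

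Several abundant receptors did not pass. Ltbr, the lymphotoxin beta receptor, averaged 116 ± 8.12 CPM in the tumours labelled KO and 123 ± 10.5 CPM in those labelled WT, with a narrow log2 fold change interval of -0.27 to 0.11. Tnfrsf21, which encodes the death-domain receptor DR6, averaged 137 ± 9.79 CPM in the tumours labelled KO and 118 ± 11.2 CPM in those labelled WT (interval 0.01 to 0.42, edgeR adjusted p = 0.118). Cd40, a costimulatory receptor of antigen-presenting cells, had 23.9, 25.0, 15.7 and 25.3 CPM in the tumours labelled KO, against 19.6, 7.92, 11.2 and 19.6 CPM in those labelled WT (0.63 ± 0.30, edgeR adjusted p = 0.168). KO replicate 3 lay under WT replicates 1 and 4. At lower levels, the T cell costimulator Tnfrsf4 (OX40) averaged 2.54 ± 1.05 CPM in the tumours labelled KO and 1.79 ± 0.411 CPM in those labelled WT. The BAFF receptor gene Tnfrsf13c averaged 2.99 ± 1.79 CPM in the tumours labelled KO and 2.08 ± 0.901 CPM in those labelled WT. Both had overlapping groups, with log2 fold changes of 0.51 ± 0.34 for Tnfrsf4 and 0.51 ± 0.44 for Tnfrsf13c. Tnfrsf19, a family receptor of epithelial progenitors also called TROY, had 2.39 to 6.25 CPM in the tumours labelled KO, against 14.9 CPM in WT replicate 2 and 1.79 to 4.54 CPM in the other tumours labelled WT. Its log2 fold change of -0.43 ± 0.63 turned to 0.33 without KO replicate 1 and WT replicate 2. In all, 19 tested members did not pass, with adjusted p from 0.0885 to 0.982, and several of their intervals are wide: that of Tnfrsf9 ran from -1.17 to 0.90.

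**Figure D3:**
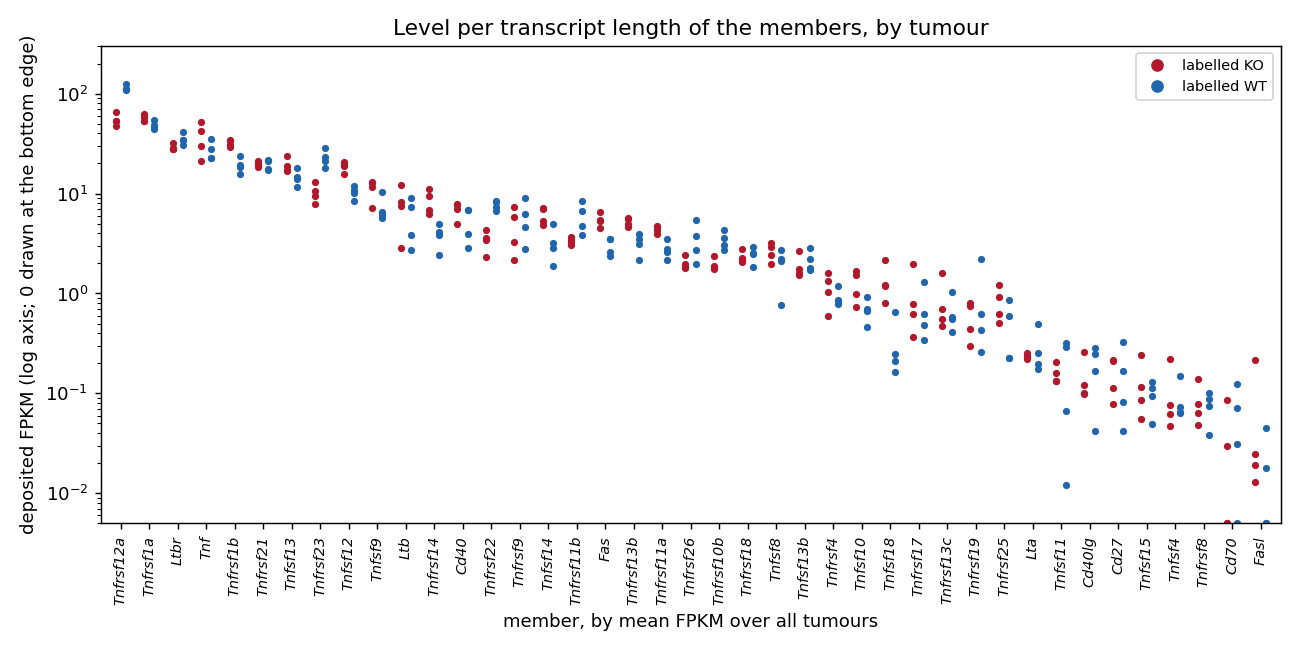
FPKM of the members in each group (points are tumours, tumours labelled KO beside tumours labelled WT, log axis), ordered by mean over the 8 tumours. Tnfrsf12a, Tnfrsf1a, Ltbr, Tnf and Tnfrsf1b lead the order, and Cd70 and Fasl are last.

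By FPKM, the order of levels was led by Tnfrsf12a, Tnfrsf1a, Ltbr, Tnf and Tnfrsf1b, 4 receptors and 1 ligand. Tnfrsf1a stood at 56.9 ± 4.25 FPKM in the tumours labelled KO and 48.2 ± 4.16 FPKM in those labelled WT (SD, n = 4 each). In the tumours labelled KO its level was within the spread of Tnfrsf12a, at 54.7 ± 7.76 FPKM, whereas in those labelled WT Tnfrsf12a was at 114 ± 6.78 FPKM. Tnfrsf1b was at 31.8 ± 2.404 FPKM in the tumours labelled KO and 19.3 ± 3.18 FPKM in those labelled WT. Ltbr was at 29.2 ± 1.98 FPKM in the tumours labelled KO and 35.0 ± 4.26 FPKM in those labelled WT. The FPKM values carry the authors' own scaling to a fixed total, so their group ratios differ from those of the scaled CPM.

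Ligands and receptors were paired from textbook knowledge into 27 pairs, of which 22 had both partners tested. In 6 pairs both partners were called. Both were higher in 2 pairs, Tnfsf14 with Tnfrsf14 and Tnfsf13 with Tnfrsf13b. In the other 4 the ligand was higher and the receptor lower: Tnfsf12 with Tnfrsf12a, and Tnfsf10 with Tnfrsf10b, Tnfrsf22 and Tnfrsf23. The last 3 share 1 ligand, whose call depended on single tumours. In 11 pairs 1 partner was called, always as higher, and in 5 neither was. The remaining 5 had at least 1 partner under the filter, among them Fasl with Fas.

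The balance within a pair can be read in each tumour as the receptor's FPKM over the ligand's. For Tnfrsf12a over Tnfsf12 it was 3.40, 2.43, 2.56 and 3.45 in the tumours labelled KO, against 10.3, 12.1, 13.03 and 9.30 in those labelled WT. Every tumour labelled KO was under every tumour labelled WT, and this ratio does not depend on how libraries are scaled. It does depend on the uncertain division of reads between Tnfsf12 and Tnfsfm13 given above. The FPKM of Tnfrsf12a, Tnfrsf22 and Tnfrsf23 are for another transcript than their counts. For Tnfrsf10b over Tnfsf10 the ratio ran from 1.04 to 2.52 under the KO label, against 3.84 to 6.61 under the WT label. For Tnfrsf22 over Tnfsf10 it ran from 1.39 to 6 under the KO label, against 7.91 to 14.5 under the WT label. For Tnfrsf23 over Tnfsf10 it ran from 4.61 to 18.1 under the KO label, against 25.0 to 43.0 under the WT label. The ranges did not overlap in these 3. For Tnfrsf14 over Tnfsf14 they overlapped, with 0.961 to 1.97 under the KO label and 1.01 to 1.36 under the WT label. They also overlapped for Tnfrsf13b over Tnfsf13, with 0.234 to 0.305 under the KO label and 0.148 to 0.3004 under the WT label. These ratios restate the calls above and were not tested.

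**Figure D4:**
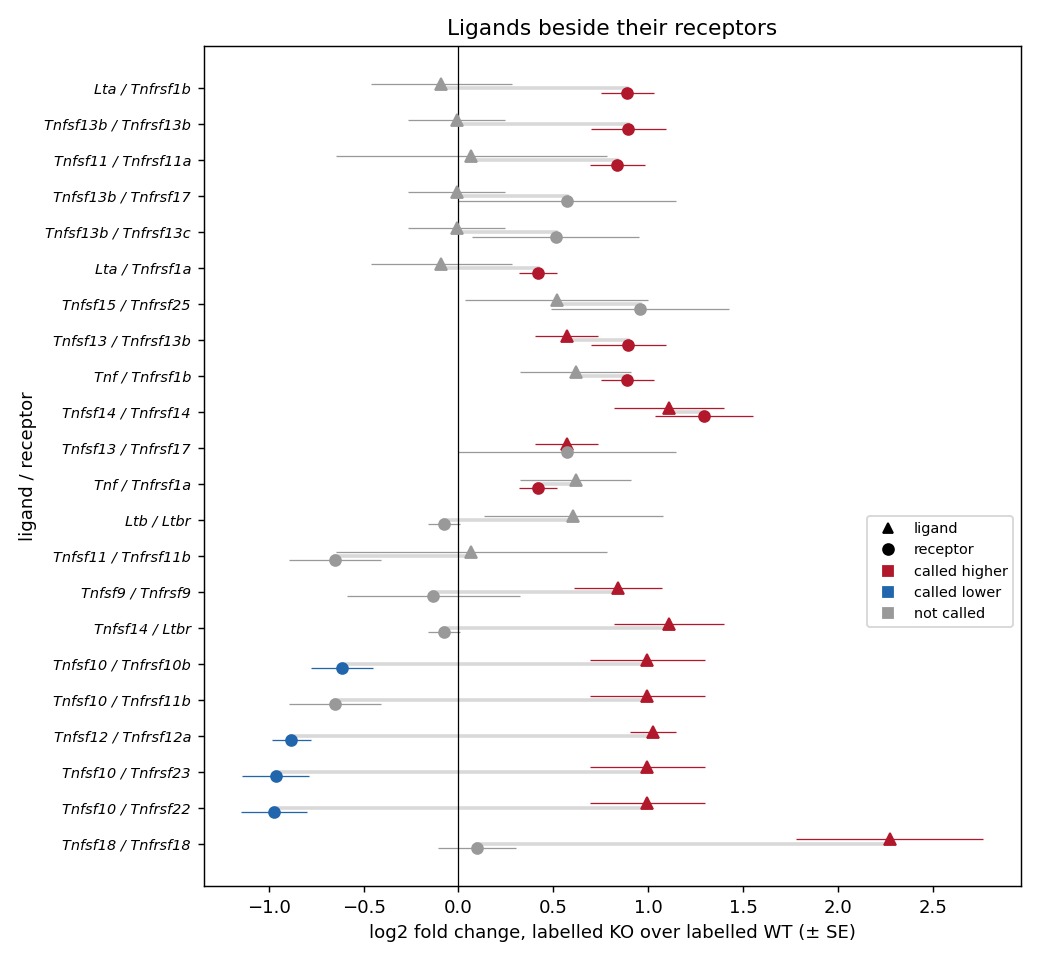
Log2 fold changes, tumours labelled KO over tumours labelled WT, of the ligand and the receptor of each pair with both partners tested (triangles and circles, with bars of 1 SE, 1 row per pair, x axis on the log2 scale of scaled CPM). Pairs with Tnfsf12 or Tnfsf10 as ligand and a receptor called lower span 0, while Tnfsf14 and Tnfrsf14 both lie above 1.

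Partners of called members that did not pass themselves were Tnfrsf9, Tnfrsf17, Tnfrsf18, Tnfrsf11b and Ltbr on the receptor side, and Tnf, Lta, Tnfsf11 and Tnfsf13b on the ligand side. Tnfrsf18, the GITR receptor for Tnfsf18, averaged 4.43 ± 0.706 CPM in the tumours labelled KO and 4.15 ± 0.826 CPM in those labelled WT. Its log2 fold change was 0.10 ± 0.21 (interval -0.37 to 0.57), and it turned to -0.080 with library totals alone. Tnfrsf9, the 4-1BB receptor for Tnfsf9, averaged 18.2 ± 9.27 CPM in the tumours labelled KO and 19.99 ± 9.67 CPM in those labelled WT. Tnfrsf17, which encodes the plasma-cell receptor BCMA, had a log2 fold change of 0.57 ± 0.57 (edgeR adjusted p = 0.511).

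Markers of other cell types moved with the same labels. Of 14 tested monocyte and macrophage markers, 13 were higher under the KO label and 0 lower, with summed levels of 22250.4 to 28936 CPM against 8419 to 15194 CPM in those labelled WT and a median log2 fold change of 1.18. Of 8 common leukocyte markers, 7 were higher, with sums of 3504 to 4139 CPM in the tumours labelled KO against 1619 to 2454 CPM in those labelled WT. Of 16 epithelial markers, 13 were lower and 0 higher, with sums of 3740.0 to 5194 CPM in the tumours labelled KO against 7078 to 9445 CPM in those labelled WT and a median of -0.75. Of the 12 higher members, 10 had a fold change below the macrophage markers' median, and Tnfrsf14 and Tnfsf18 were above it. Set against the common leukocyte markers (median 0.82, range 0.35 to 1.06), 10 of the 12 were above the median, and Tnfrsf14, Tnfsf14 and Tnfsf18 were above the range. Tnfsf18 lay above the whole range of the macrophage markers (0.44 to 2.02) and Tnfrsf1a below it. All 4 lower members lay within the range of the epithelial markers (-1.19 to -0.56), and 3 of them beyond the median. The members placed here were picked by passing the test, whereas the lists also hold uncalled genes, so the placings partly follow from that choice. The part of these cell types in the members' differences was not tested.

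For the other cell types, lists are given with their summed levels. T cell markers summed to 21.1 to 40.3 CPM in the tumours labelled KO and 9.59 to 31.8 CPM in those labelled WT. Of 8 tested, 0 were called by edgeR or DESeq2 and 0 had an unadjusted p under 0.05. Their log2 fold changes were all positive, from 0.35 to 1.69, with a median of 0.81. Cd3e was at 1.41 ± 1.11 CPM in the tumours labelled KO and 0.826 ± 0.823 CPM in those labelled WT. NK cell markers summed to 21.4 to 67.4 CPM in the tumours labelled KO and 12.9 to 24.8 CPM in those labelled WT. Of 4 tested, 0 were called by edgeR or DESeq2 and 1 had an unadjusted p under 0.05. Their log2 fold changes ran from -0.26 to 3.21, with a median of 1.44. Ncr1 had 0 or 1 read in every tumour. B and plasma cell markers, which bear on Tnfrsf13b and Tnfrsf17, had 0 higher and 1 lower of 7 by edgeR and by DESeq2, and 1 higher at an unadjusted p under 0.05. The marker called lower by edgeR was Sdc1, named after its values were seen. It was at 378 ± 60.2 CPM in the tumours labelled KO and 691 ± 129 CPM in those labelled WT. The log2 fold change of Sdc1, -0.87 ± 0.16, lay within the range of the epithelial markers (-1.19 to -0.56). Which cells its reads came from was not tested. The other tested B and plasma cell markers had positive log2 fold changes, and the list median was 0.61. The list summed to 812 to 2981 CPM in the tumours labelled KO and 878 to 2340.2 CPM in those labelled WT. Jchain and Sdc1 had the highest levels in it. Ms4a1 was at 4.67 ± 2.52 CPM in the tumours labelled KO and 2.02 ± 1.24 CPM in those labelled WT.

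Fibroblast markers had 2 of 9 higher, with sums of 763 to 4232 CPM in the tumours labelled KO and 404 to 1517 CPM in those labelled WT. Col1a1 was at 521 ± 376.0 CPM in the tumours labelled KO and 199 ± 124 CPM in those labelled WT. Dendritic cell markers had 1 of 8 higher by edgeR, 2 by DESeq2 and 3 at an unadjusted p under 0.05, and 0 lower by each. Their median log2 fold change was 0.50 (range -0.49 to 1.84). They summed to 261 to 397 CPM in the tumours labelled KO and 234 to 507 CPM in those labelled WT. Itgax, named after its values were seen, had the highest level of the list. It was at 238 ± 37.9 CPM in the tumours labelled KO and 323 ± 101 CPM in those labelled WT (-0.44 ± 0.24, not called). Neutrophil markers had 1 of 5 higher by edgeR, with sums of 70.2 to 121 CPM in the tumours labelled KO and 43.7 to 67.9 CPM in those labelled WT. The called marker was Csf3r, named after its values were seen, which had the highest level of the list. It was at 63.2 ± 12.9 CPM in the tumours labelled KO and 28.9 ± 7.92 CPM in those labelled WT. S100a8 and S100a9 had log2 fold changes of -0.29 ± 0.30 and 0.20 ± 0.51 and were not called. Endothelial markers had 0 of 6 called by edgeR or DESeq2 and 0 at an unadjusted p under 0.05, with sums of 27.8 to 35.9 CPM in the tumours labelled KO and 22.5 to 44.6 CPM in those labelled WT. Pecam1 was at 8.52 ± 0.505 CPM in the tumours labelled KO and 7.42 ± 1.98 CPM in those labelled WT. Acinar markers had 0 of 9 called by edgeR, 1 by DESeq2 and 3 at an unadjusted p under 0.05. Their log2 fold changes ran from 1.36 to 5.09, with a median of 2.57. They varied widely, with sums from 1724 to 37823 CPM in the tumours labelled KO and from 406 to 7898 CPM in those labelled WT. Cpa1, an acinar enzyme, had 4383, 1056, 2887 and 209.7 CPM in the tumours labelled KO, against 122, 1174, 38.0 and 98.6 CPM in those labelled WT. Without KO replicate 1 and WT replicate 2, the tumours with the most Cpa1 reads in their groups, 6 members were higher and 4 lower (6.33% and 6.58% of all genes).

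Of 24 adaptors and kinases behind the receptors, 4 were higher and 1 lower (median log2 fold change 0.12, beside 0.01 over all genes). That is 20.8% called, near the 21.8% of all genes. Traf4, a TRAF adaptor, was lower, at 44.5 ± 4.87 CPM in the tumours labelled KO and 73.0 ± 4.43 CPM in those labelled WT (-0.71 ± 0.09, edgeR adjusted p = 0.00440). Ripk1, the death-domain kinase of TNFR1 signalling, was higher, at 131 ± 7.99 CPM in the tumours labelled KO and 97.4 ± 8.85 CPM in those labelled WT (0.43 ± 0.08, edgeR adjusted p = 0.00996). Birc3, the ubiquitin ligase cIAP2, and Traf5 were higher by 0.48 ± 0.11 and 0.63 ± 0.14 on the log2 scale, as was Map3k14, the kinase NIK, which was named after its values were seen (0.53 ± 0.13).

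Of 15 death effectors, 4 were higher and 1 lower (33.3% called, beside 21.8% of all genes, median 0.24). Bax, a pore-forming effector of apoptosis, was higher by 0.34 ± 0.07 on the log2 scale (edgeR adjusted p = 0.0117), and Casp8, the initiator caspase of death receptors, by 0.28 ± 0.08. Bak1, named after its values were seen, was higher by 0.30 ± 0.09. Bcl2l1, which encodes the survival protein Bcl-xL, was lower, with 92.5 ± 13.3 CPM in the tumours labelled KO and 134 ± 18.8 CPM in those labelled WT (-0.53 ± 0.13, edgeR adjusted p = 0.0230).

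Of 23 genes known to respond to TNF or NF-kB, 6 were higher and 1 lower (30.4% called, beside 21.8% of all genes, median 0.38). Cxcl10, a chemokine also induced by interferon, was at 16.4 ± 4.36 CPM in the tumours labelled KO and 3.75 ± 0.538 CPM in those labelled WT (2.13 ± 0.23, edgeR adjusted p = 0.00440). Nfkbia, the inhibitor of NF-kB and its target, was at 495 ± 99.3 CPM in the tumours labelled KO and 259.9 ± 41.0 CPM in those labelled WT (0.93 ± 0.18, edgeR adjusted p = 0.00904). Cxcl1, a neutrophil chemokine, was higher by 0.94 ± 0.22 (edgeR adjusted p = 0.0194). Lcn2, an iron-binding secreted protein, went the other way, at 121 ± 19.2 CPM in the tumours labelled KO and 237 ± 82.1 CPM in those labelled WT (-0.97 ± 0.25, edgeR adjusted p = 0.0272). Members and these genes were compared in the same tumours, so no order between receptor and response can be read from the counts.

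In the genome, 17 of the 41 members lay on chromosomes 4 and 17, and 10 pairs of members were direct neighbours in the count table. Tnfsf12 and Tnfsf13 were both higher, and Tnfrsf22 and Tnfrsf23 both lower, with the uncertainty in how reads were divided that is given above for each. Tnf and Lta, direct neighbours on chromosome 17, were not called. Tnfsf18 was called higher between Tnfsf4 and Fasl on chromosome 1, both of which were under the filter.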

How the data were processed

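EpCAM+ cells of 8 tumours, 4 labelled KO and 4 labelled WT, were sequenced as bulk RNA. Per the submitters' processing notes, FastQC 0.11.2, STAR 2.4.0k, HOMER and edgeR 3.6.8 were used with mm10. Per the file headers, the deposited counts are raw reads over exons from HOMER, RefSeq genes, 1 transcript kept per gene, plus strand. Per the file headers, the deposited FPKM table was also written by HOMER, with a fixed library total. Of the 41 members, 34 have the same transcript in both tables and 7 another. Whether the library kit keeps strand is not given in the sources used here.

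Here, genes were filtered with filterByExpr (minimum count 10, total 15), TMM-scaled and tested with edgeR 4.0.16 (quasi-likelihood, labelled KO over labelled WT, no covariate) in R 4.3.3, with Benjamini-Hochberg adjustment over all 14728 genes and a threshold of 0.05. The script was tested on simulated data. CPM are TMM-scaled, errors are SD (n = 4 per group) or SE of the log2 fold change, and intervals are 95%. Alternatives were library totals alone, DESeq2 1.42.0, no filter, each tumour left out, subsets of controls, and limma 3.58.1 on log2(FPKM + 1) and log2(FPKM + 0.1), 17 in all. Named in the text are Lifr, each called member and its partners, the 8 other members highest in FPKM, and up to 4 called genes of each pathway list with the smallest p. Some markers of the cell type lists are named as well. The members, lists and pairs were chosen with earlier results of these data known. Library totals of 14938875 to 22698340 counts limit genes of few reads. The tumours were separate, but nothing says how mice were related. The edgeR p-values set the group difference against a variance between these tumours that is estimated partly from all genes. No 2 libraries agreed within sampling noise. Per-tumour ratios and promoter matches carry no test. All columns of the count and FPKM tables were used. An allele that both groups carry and a gene of the pathway lists are not reported here.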

Additional observations from a re-analysis of the deposited data

Results flagged for a closer look

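In 4 of 70 groups of 4 tumours, 1 tumour lay far from the others (gap over range above Dixon's 95% critical value for 4 samples). Chance gives about 1 in 20 such groups. Among the tumours labelled KO, Cd40 was at 15.7 CPM in replicate 3, beside 23.9 to 25.3 CPM in the others. Tnfrsf10b was at 15.01 CPM in KO replicate 1, beside 10.6 to 11.05 CPM in the others. Tnfsf13 was at 76.6 CPM in KO replicate 4, beside 54.1 to 57.7 CPM in the others. Among the tumours labelled WT, Tnfrsf1a was at 199 CPM in replicate 4, beside 165 to 169.7 CPM in the others.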

How the results depend on the processing

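Of 16 called members, 10 stayed called without any 1 tumour and 5 (Fas, Tnfrsf11a, Tnfrsf12a, Tnfrsf1b and Tnfsf12) under all 17 alternatives. No called member changed direction under any of them. How many of all called genes kept their calls in these ways was not counted. The 10 and the 5 therefore have no share over all genes beside them. Members called higher numbered 7 to 11 and lower 3 to 5 with 1 tumour left out. They numbered 8 and 5 with library totals alone (6.11% and 21.1% of all genes), 12 and 5 by DESeq2 (14.3% and 14.1%), 11 and 4 without the filter (7.73% and 7.41%), 9 and 3 against the f/+ tumours (6.75% and 6.01%), 5 and 2 against the +/+ tumours (3.41% and 3.93%), and 6 and 4 without KO replicate 1 and WT replicate 2 (6.33% and 6.58%). With limma they were 8 and 5 at both pseudocounts (6.91% and 21.7%) and 8 and 4 without a filter (3.98% and 13.4%). The 6 members that lost their call without some 1 tumour were called in 10 (Tnfrsf10b and Tnfsf14), 7 (Tnfrsf1a), 5 (Tnfsf9), 4 (Tnfsf13) and 3 (Tnfsf10) of the 17 alternatives. Against the +/+ tumours fewer genes were called overall. The other causes were not tested.

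Directions turned in 9 uncalled members, none of them called after turning. The log2 fold change of Tnfrsf18 was -0.080 with library totals alone, -0.027 against f/+ tumours, -0.054 on log2(FPKM + 1) with and without the filter, -0.071 on log2(FPKM + 0.1) and -0.020 to 0.21 with 1 tumour left out. Tnfsf11 was at -0.12 with library totals, -0.0094 on log2(FPKM + 1) without a filter and -0.34 to 0.57 with 1 tumour left out. Against f/+ tumours Lta was at 0.34 (-0.25 to 0.35 with 1 tumour left out) and Tnfrsf9 at 0.20 (-0.40 to 0.18). Against +/+ tumours Ltbr was at 0.0011, Tnfrsf19 at 0.53 and Tnfsf13b at 0.071. Without KO replicate 1 and WT replicate 2, Tnfrsf19 was at 0.33. With 1 tumour left out, Tnfrsf19 ran from -0.74 to 0.51, Tnfsf13b from -0.23 to 0.17, Tnfsf15 from -0.0074 to 0.76 and Tnfrsf17 from -0.025 to 1.10. No paired analysis was possible because the labels give animal numbers, which pair no tumours between the groups. The replicate numbers used in the text were assigned here within each group. Depth limits members under about 1 CPM, such as Lta and Tnfsf11.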
